A study of Homo sapiens with 6 samples.

Results

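Phase I and phase II detoxification enzymes were examined in LoVo-HM cells and in LoVo cells. LoVo is an established human colorectal adenocarcinoma cell line. The members were the genes of the deposited expression table whose symbols begin CYP, UGT1 or UGT2, SULT, AKR1, AKR7 or ALDH followed by a number, together with NQO1, NQO2, EPHX1, CBR1 and CBR3. The retinoid enzymes CYP26B1, ALDH1A1 and ALDH1A3 and the sterol enzyme CYP51A1 were left out, 4 symbols in all. This gave 123 members among the 24580 rows of the table. LoVo-HM is labelled as a subline of LoVo with high metastatic capacity, the LoVo cells are labelled wild type, and both are labelled as untreated. How LoVo-HM was derived, and whether it is a clone, is not stated in the sources used here. Each of the 2 groups had 3 libraries made from total RNA, and it is not stated whether these came from separate cultures, so the p-values measure only the spread between these libraries.

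Phase I enzymes oxidise, reduce or hydrolyse foreign compounds and many internal ones. Cytochromes P450 (CYP) insert oxygen, aldehyde dehydrogenases (ALDH) turn aldehydes into acids, aldo-keto (AKR) and carbonyl reductases (CBR) turn carbonyls into alcohols, and NQO enzymes reduce quinones. Phase II enzymes attach a soluble group, glucuronate in the case of UGT enzymes and sulphate in the case of SULT enzymes. In the intestinal epithelium these families act on dietary and bile-borne compounds, and several members are induced by the aryl hydrocarbon receptor (AHR), a ligand-activated transcription factor, or by the stress-responsive factor NRF2.

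Levels are in FPKM, a count of fragments divided by transcript length and by the size of the library. The columns summed to 424624 to 428265 FPKM for LoVo-HM, against 434108 to 439082 for LoVo. Read depth is unknown, so no detection limits are given. KRT8, KRT18, KRT19 and EPCAM were expressed in both lines, though not at equal levels. EPCAM averaged 51.7 FPKM in LoVo-HM and 128 in LoVo, and KRT19 averaged 389 in LoVo-HM and 105 in LoVo. KRT18 averaged 859 FPKM in LoVo-HM and 549 in LoVo, and KRT8 averaged 1348 in LoVo-HM and 1199 in LoVo. The intestinal factor CDX2 averaged 14.7 FPKM in LoVo-HM and 8.39 in LoVo. Other markers of colorectal epithelium were absent or nearly so, since VIL1, GPA33 and CDX1 were listed at 0 in all 6 libraries and CDH17 averaged 0.0144 FPKM in LoVo-HM and 0 in LoVo. The 8 hepatocyte markers summed to 0.142 ± 0.127 FPKM in LoVo-HM and 0.0449 ± 0.0433 in LoVo (SD, n = 3), with ALB at 0 throughout. In these bulk libraries, fewer cells with a transcript and less of it per cell cannot be told apart.

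Most members were scarcely expressed. Of the 123, 33 were listed at 0 in every library and 42 were above 0 somewhere but averaged under 0.5 FPKM. The other 48 were tested on log2(FPKM + 1) with limma, and 30 members averaged at least 5 FPKM in the line where they were higher. No member reached 100 FPKM. Log2 differences subtract LoVo from LoVo-HM, carry their SE and use log2(FPKM + 1), so changes of low genes are understated. Adjusted p-values are limma's with Benjamini-Hochberg adjustment over all 14487 tested genes. Positions are GRCh38. Of the 48, 27 (56.2%) passed the threshold of 0.05, against 44.9% of all tested genes. In LoVo-HM 12 of these rose, where 21.8% of all tested genes did, and 15 fell, where 23.1% did. Their median log2 difference was -0.10, against 0.003 for all tested genes. A called log2(FPKM + 1) difference of at least 1 in size, a 2-fold change on that scale, was seen in 7 members, 2 higher and 5 lower, where 6.56% of all tested genes were called at that size (2.37% higher and 4.18% lower). By the ratio of mean FPKM, the called members CYP2S1, ALDH2, CYP11A1 and AKR1C3 also differed by over 2-fold, and with a pseudocount of 0.1 the count was 10. The libraries of the 2 lines did not overlap for 33 of the 48, against 55% of all tested genes.

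**Figure D1:**
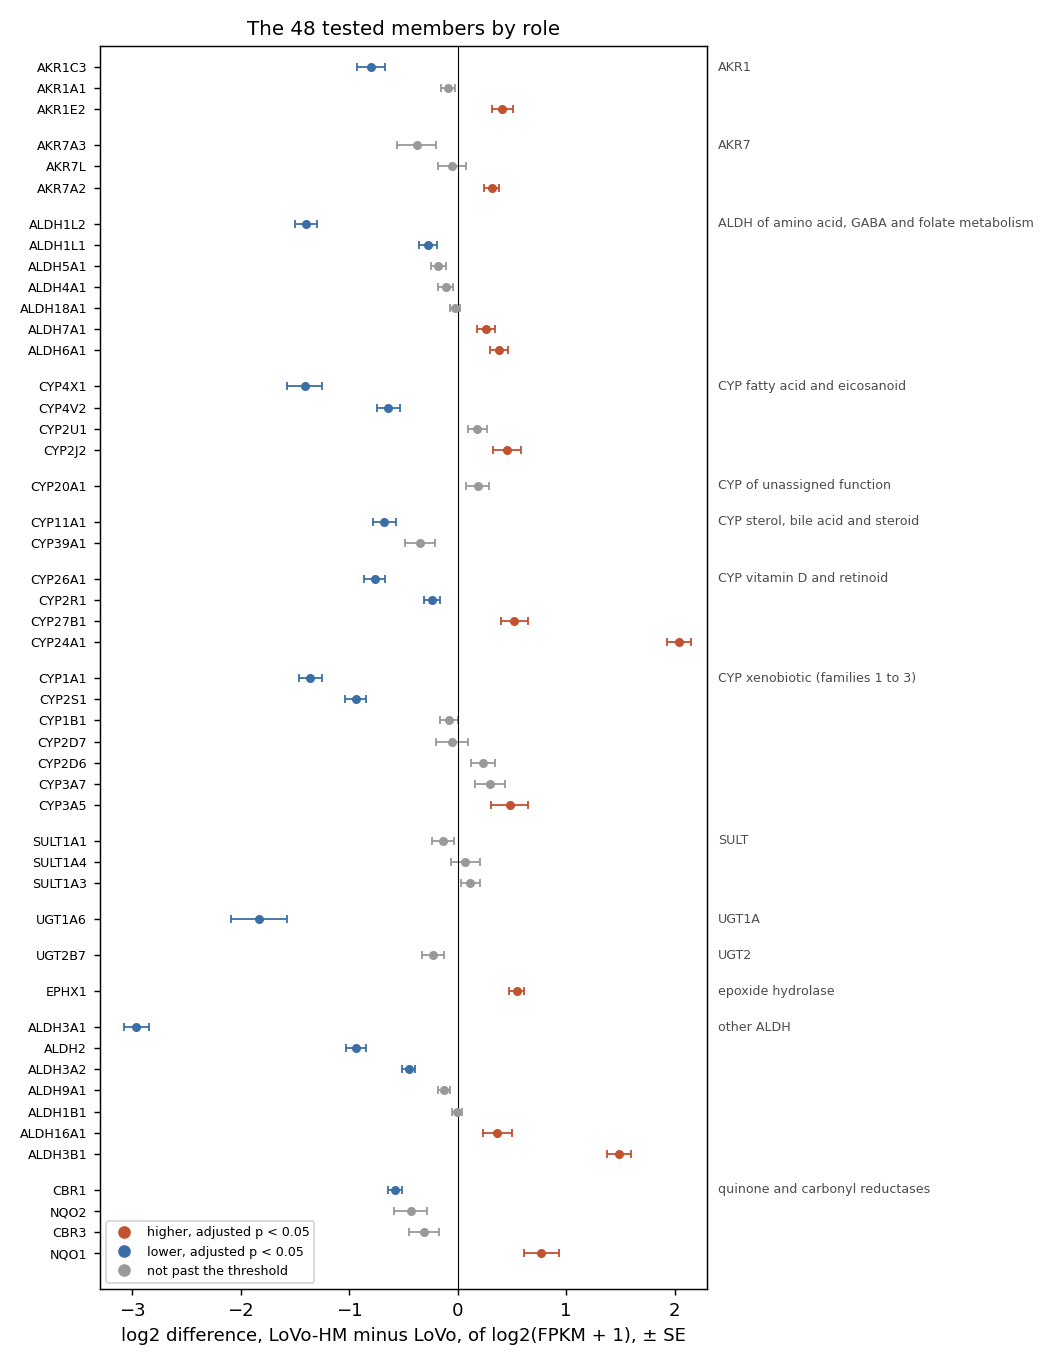
Log2 difference (LoVo-HM minus LoVo, of log2(FPKM + 1), horizontal axis, bars ± SE) of the 48 tested members grouped by role (vertical axis), coloured by whether they passed an adjusted p of 0.05. ALDH3A1 (-2.96) and UGT1A6 (-1.83) lie farthest to the left and CYP24A1 (2.04) and ALDH3B1 (1.49) farthest to the right, while the 3 tested SULT genes lie close to 0.

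Promoter windows of members that AHR or NRF2 can induce are shown because such members went in different directions between the lines, as described with their values further on. Each window runs from 250 bases before the gene's start to 50 bases after it, 5′ to 3′ on the gene's strand, from RefSeq on GRCh38.p14. Of the 48 tested members, 36 had such a window, and ALDH3A1 and CYP1B1 are named only. Capitals mark the core of the AHR response element, GCGTG, on either strand (CACGC when read on the gene's strand), and the core of the NRF2 response element, TGACNNNGC, on either strand (GCNNNGTCA).
CYP1A1 (chr15:74725479-74725778, minus strand, lower in LoVo-HM): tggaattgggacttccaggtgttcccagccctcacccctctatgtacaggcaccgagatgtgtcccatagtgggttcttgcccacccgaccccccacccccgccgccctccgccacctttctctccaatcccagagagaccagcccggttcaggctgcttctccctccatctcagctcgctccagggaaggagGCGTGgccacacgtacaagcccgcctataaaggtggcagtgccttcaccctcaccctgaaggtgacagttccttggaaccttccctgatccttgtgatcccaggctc
UGT1A6 (chr2:233691452-233691751, plus strand, lower in LoVo-HM): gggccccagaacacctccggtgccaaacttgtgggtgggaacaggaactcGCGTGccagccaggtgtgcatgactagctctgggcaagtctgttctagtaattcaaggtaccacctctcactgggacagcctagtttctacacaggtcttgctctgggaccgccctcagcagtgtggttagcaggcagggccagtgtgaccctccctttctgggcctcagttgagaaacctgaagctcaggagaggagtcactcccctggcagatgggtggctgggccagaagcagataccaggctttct
NQO1 (chr16:69726511-69726810, minus strand, higher in LoVo-HM): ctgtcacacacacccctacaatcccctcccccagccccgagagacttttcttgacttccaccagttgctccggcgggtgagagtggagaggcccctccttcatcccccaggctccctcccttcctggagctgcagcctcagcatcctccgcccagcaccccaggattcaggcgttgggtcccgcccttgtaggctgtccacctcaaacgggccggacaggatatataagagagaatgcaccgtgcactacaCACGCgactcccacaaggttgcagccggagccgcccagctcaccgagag
CBR1 (chr21:36069774-36070073, plus strand, lower in LoVo-HM): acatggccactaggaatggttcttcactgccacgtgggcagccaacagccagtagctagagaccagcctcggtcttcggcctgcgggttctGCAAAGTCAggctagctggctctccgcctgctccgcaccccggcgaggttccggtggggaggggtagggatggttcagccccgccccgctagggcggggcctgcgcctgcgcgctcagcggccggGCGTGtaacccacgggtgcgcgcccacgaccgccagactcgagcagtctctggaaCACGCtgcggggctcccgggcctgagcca

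The CYP1A1 window held 1 GCGTG, which began 57 bases before the gene's start, and the UGT1A6 window held 1 that began 200 bases before it. The window of a second RefSeq start of UGT1A6, not printed, held 1 TGACNNNGC and no GCGTG. NQO1 had 1 GCGTG on the opposite strand just after the RefSeq start, and no TGACNNNGC in this window. The whole window lies within the annotated NQO1 gene (chromosome 16, 69706996 to 69726951). No bases before that span were searched, so a match farther upstream would not be seen. CBR1 had 2 GCGTG matches and 1 TGACNNNGC match, the TGACNNNGC match on the opposite strand 159 bases before the start, and no marked matches overlapped one another. Over all tested members with a window, 17 of 36 (47.2%) held GCGTG, against 40.6% of 27305 genes with windows of the same length. TGACNNNGC was held by 5 of 36 (13.9%), against 16.1% of all genes. Both shares are descriptions of these windows, and matches stood in members that rose as well as in members that fell.

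Among the P450s of families 1 to 3, which oxidise most drugs and pollutants, 7 of 22 members were tested, of which 1 rose and 2 fell. For this and the later groups of members, 21.8% of all tested genes rose and 23.1% fell. No group was tested as a set. CYP1A1, which oxidises polycyclic aromatic hydrocarbons and is the classical AHR-induced P450 (ENSG00000140465, chromosome 15, 74719542 to 74725610), stood at 1.97, 1.64 and 2.28 FPKM in LoVo-HM, against 7.27, 6.18 and 6.30 FPKM in LoVo. All 3 LoVo-HM libraries were below all 3 LoVo libraries. The difference was 3.35-fold (log2 difference -1.36 ± 0.104, adjusted p = 1.35e-05). CYP1B1, a hydroxylase of oestrogens and hydrocarbons that AHR also induces, had 8.02, 6.74 and 7.21 FPKM in LoVo-HM and 7.40, 7.59 and 8.34 in LoVo. Its groups overlapped and it did not pass the test (-0.08 ± 0.081, adjusted p = 0.468). The third member of the CYP1 family, CYP1A2, a mainly hepatic enzyme, was at most 0.0157 FPKM in LoVo-HM and 0.0418 in LoVo.

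CYP2S1, a P450 of epithelia outside the liver, had 5.54, 5.53 and 5.67 FPKM in LoVo-HM, against 12.7, 9.81 and 12.5 FPKM in LoVo. It fell 2.09-fold, with no overlap (-0.94 ± 0.097, adjusted p = 8.35e-05). CYP3A5, a drug-metabolising P450 of gut and liver, had 1.30, 1.52 and 1.22 FPKM in LoVo-HM, against 0.375, 0.581 and 1.18 FPKM in LoVo (0.48 ± 0.169, adjusted p = 0.0468). LoVo replicate 3 came close to the LoVo-HM libraries, and the call held in 6 of the 15 alternative settings that gave a value. It was lost without any 1 of the other 5 libraries, at 0.33 to 0.52 (adjusted p = 0.0745 to 0.139). CYP3A7, the fetal form, did not pass (adjusted p = 0.113), and CYP3A4, the main adult drug-metabolising P450, was at most 0.126 FPKM in LoVo-HM and 0.05 in LoVo. CYP3A genes share sequence, so the split between them is uncertain, and their 5 rows together summed to 2.59 ± 0.154 FPKM in LoVo-HM and 1.38 ± 0.544 in LoVo (SD, n = 3). The drug-metabolising CYP2D6 and its neighbour CYP2D7, a close copy annotated as a polymorphic pseudogene, did not pass (adjusted p = 0.125 and 0.805).

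The P450s that act on vitamin D and retinoids had 4 tested members of 6. All 4 were called, where 44.9% of all tested genes were. CYP24A1, the mitochondrial enzyme that inactivates vitamin D hormone (ENSG00000019186, chromosome 20, 54153449 to 54173973), had 3.00, 3.65 and 3.72 FPKM in LoVo-HM, against 0.0498, 0.136 and 0.0580 FPKM in LoVo. Every LoVo library was near 0 and every LoVo-HM library was at about 3 FPKM or more, a ratio of 42.4 between the means (2.04 ± 0.108, adjusted p = 1.19e-06). The log2 difference was 4.32 when 0.1 was added to each value and not 1. CYP27B1, which makes the active hormone, had 5.98, 7.60 and 5.12 FPKM in LoVo-HM, against 4.05, 4.19 and 3.73 FPKM in LoVo (0.52 ± 0.122, adjusted p = 0.00811). It rose 1.56-fold without overlap. CYP2R1, which carries out the first hydroxylation of vitamin D, was lower, at 6.41 ± 0.495 FPKM in LoVo-HM and 7.74 ± 0.321 in LoVo (SD, n = 3), a difference of -0.24 ± 0.075 (adjusted p = 0.0304) that was called in 10 of 16 alternative settings. It was lost without LoVo-HM replicate 1 or 3 or LoVo replicate 1 or 2, at -0.25 to -0.19 (adjusted p = 0.0533 to 0.107), with rescaled totals (adjusted p = 0.0505) and with quantile normalization (adjusted p = 0.0918). The retinoic acid hydroxylase CYP26A1 had 3.81, 2.96 and 3.60 FPKM in LoVo-HM, against 5.97, 6.66 and 7.08 FPKM in LoVo, and fell 1.90-fold (-0.77 ± 0.099, adjusted p = 0.00032). The enzymes that make and that break down the active hormone were both higher, and the one that makes its precursor was lower.

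**Figure D2:**
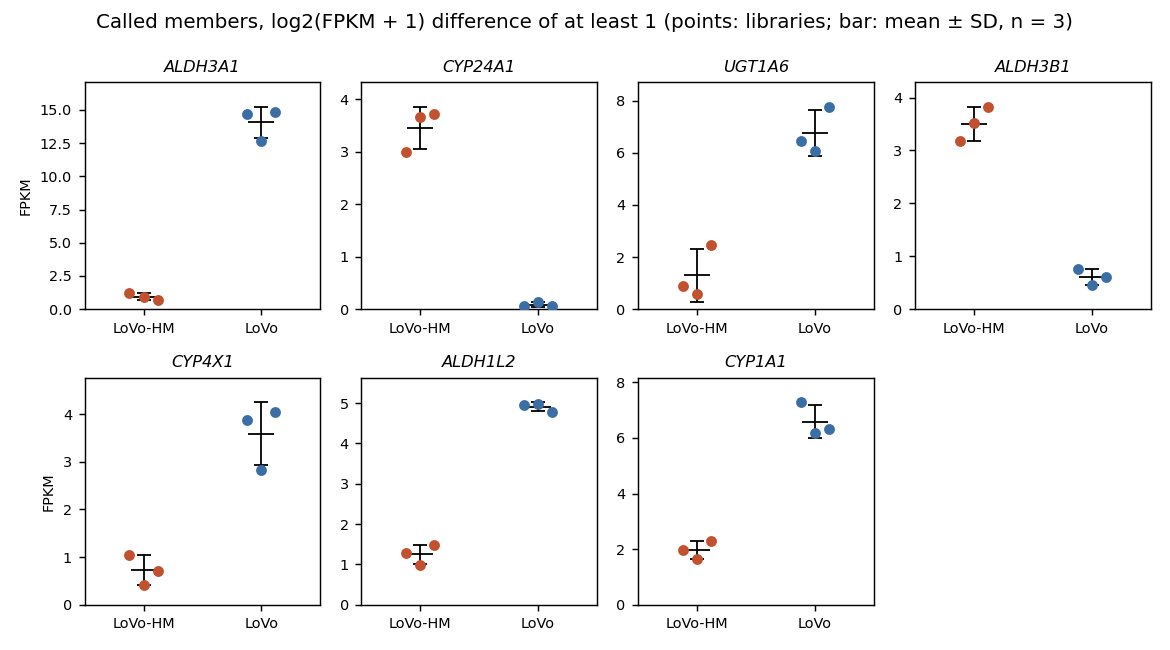
FPKM (vertical axis, linear, from 0) in LoVo-HM and in LoVo of the 7 called members whose log2(FPKM + 1) difference was at least 1 in size, ordered by that size. Points are libraries and bars are the mean ± SD (n = 3); CYP24A1 and ALDH3B1 are higher in LoVo-HM and the other 5 are lower, with no overlap between the lines in any panel.

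Of the 14 P450s that act on fatty acids and eicosanoids, 4 were tested, of which 1 rose and 2 fell. CYP4X1, a family 4 P450 (ENSG00000186377, chromosome 1, 47023568 to 47050751), had 1.05, 0.425 and 0.715 FPKM in LoVo-HM, against 3.88, 2.83 and 4.05 FPKM in LoVo. Its levels in the 2 lines were well apart, a 4.91-fold fall (-1.41 ± 0.159, adjusted p = 0.000142), and the log2 difference was -2.21 with a pseudocount of 0.1. CYP4V2, a fatty acid hydroxylase, fell to 1.88 ± 0.228 FPKM in LoVo-HM, against 3.48 ± 0.428 FPKM in LoVo (-0.64 ± 0.104, adjusted p = 0.00125). CYP2J2, which makes epoxides of arachidonic acid, was higher at 4.06 ± 0.681 FPKM in LoVo-HM and 2.69 ± 0.523 in LoVo (0.45 ± 0.132, adjusted p = 0.0216), a call made in 12 of 16 alternative settings and lost without LoVo-HM replicate 3 or LoVo replicate 1 or 2, at 0.35 to 0.44 (adjusted p = 0.0623 to 0.0713). The arachidonic acid hydroxylase CYP2U1 did not pass (adjusted p = 0.117) except with quantile normalization (adjusted p = 0.0327). Sterol, bile acid and steroid P450s had 2 tested members of 12. CYP11A1, which cleaves the cholesterol side chain, fell to 1.45 ± 0.124 FPKM in LoVo-HM, against 2.92 ± 0.435 FPKM in LoVo (-0.68 ± 0.108, adjusted p = 0.00111), and the oxysterol hydroxylase CYP39A1 did not pass (-0.35 ± 0.137, adjusted p = 0.0668). Among other settings, CYP39A1 was called without LoVo-HM replicate 2 or LoVo replicate 1 (adjusted p = 0.0424 and 0.0364) and without a trend in the variance (adjusted p = 0.049). CYP20A1, whose substrate is not established, did not pass either (adjusted p = 0.189) except with quantile normalization (adjusted p = 0.0488).

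Aldehyde dehydrogenases were the most fully expressed family, with 14 of 17 members tested, of which 4 rose and 5 fell. ALDH3A1, which clears aldehydes of lipid peroxidation and is an AHR-induced enzyme of tumour cells (ENSG00000108602, chromosome 17, 19737984 to 19748943), had the largest log2(FPKM + 1) difference of the tested members, while by the ratio of means CYP24A1 changed more. It stood at 1.20, 0.945 and 0.663 FPKM in LoVo-HM, against 14.7, 12.7 and 14.8 FPKM in LoVo. The highest LoVo-HM library was far below the lowest LoVo library, and the means differed 15.0-fold (-2.96 ± 0.116, adjusted p = 1.73e-07). ALDH3A2, its chromosome 17 neighbour (19648136 to 19677598) and the fatty aldehyde dehydrogenase of the endoplasmic reticulum, fell less, with 19.8, 19.7 and 21.0 FPKM in LoVo-HM, against 29.5, 27.7 and 26.6 FPKM in LoVo (-0.45 ± 0.058, adjusted p = 0.000312). ALDH3B1, a membrane-bound enzyme for lipid aldehydes (ENSG00000006534, chromosome 11, 68008578 to 68029282), moved the other way, at 3.17, 3.52 and 3.82 FPKM in LoVo-HM, against 0.761, 0.448 and 0.617 FPKM in LoVo. All LoVo-HM libraries were higher, by 5.76-fold in the means (1.49 ± 0.110, adjusted p = 1.05e-05), and its log2 difference was 2.37 with a pseudocount of 0.1.

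The mitochondrial enzymes for acetaldehyde and related compounds differed from each other. ALDH2, the main acetaldehyde dehydrogenase, had 6.52, 6.80 and 6.82 FPKM in LoVo-HM, against 16.1, 12.9 and 12.6 FPKM in LoVo, a 2.07-fold fall without overlap (-0.94 ± 0.093, adjusted p = 6.58e-05). ALDH1B1, its close relative, had 28.9, 28.3 and 28.7 FPKM in LoVo-HM and 28.4, 28.7 and 29.1 in LoVo. These ranges overlapped, and the difference was -0.01 ± 0.045 (adjusted p = 0.92). ALDH9A1, an aminoaldehyde dehydrogenase, did not pass (adjusted p = 0.102), and ALDH16A1, a member of uncertain activity, was higher (0.37 ± 0.129, adjusted p = 0.0471). The ALDH16A1 call was made in 8 of 16 alternative settings and held only without LoVo replicate 2 among those that left out 1 library. The lowest difference was 0.23, without LoVo replicate 3 (adjusted p = 0.123).

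Among the 7 ALDH enzymes of amino acid, GABA and folate metabolism, 2 rose and 2 fell. ALDH1L2, the mitochondrial formyltetrahydrofolate dehydrogenase (ENSG00000136010, chromosome 12, 105019784 to 105084577), had 1.28, 0.992 and 1.47 FPKM in LoVo-HM, against 4.95, 4.99 and 4.78 FPKM in LoVo. It fell 3.93-fold without overlap (-1.40 ± 0.10, adjusted p = 8.52e-06). Its cytosolic counterpart ALDH1L1 was lower by less, at 15.3 ± 0.832 FPKM in LoVo-HM and 18.7 ± 2.05 in LoVo (-0.27 ± 0.083, adjusted p = 0.0271). That call was made in 11 of 16 alternative settings and lost without LoVo-HM replicate 1 or 2 or LoVo replicate 1 or 2, at -0.27 to -0.19 (adjusted p = 0.0636 to 0.0895). ALDH6A1 of valine breakdown was higher, at 5.55 ± 0.120 FPKM in LoVo-HM and 4.05 ± 0.416 in LoVo (0.38 ± 0.082, adjusted p = 0.00589). ALDH7A1 of lysine breakdown was higher too (0.26 ± 0.082, adjusted p = 0.0291), a call made in 10 of 16 alternative settings. It was lost without replicate 2 or 3 of either line, and the difference was lowest at 0.17 without LoVo-HM replicate 3 (adjusted p = 0.056). The proline synthesis enzyme ALDH18A1, the ALDH gene with the highest level, was at 46.1 ± 1.35 FPKM in LoVo-HM and 47.0 ± 1.82 in LoVo and did not pass (adjusted p = 0.691). ALDH4A1 of proline breakdown and ALDH5A1 of GABA breakdown did not pass either (adjusted p = 0.235 and 0.0545). The ALDH5A1 libraries did not overlap, at 7.41 to 7.64 FPKM in LoVo-HM and 8.26 to 9.14 in LoVo. ALDH5A1 was called in 1 of 16 alternative settings, without a trend in the variance (adjusted p = 0.0479).

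**Figure D3:**
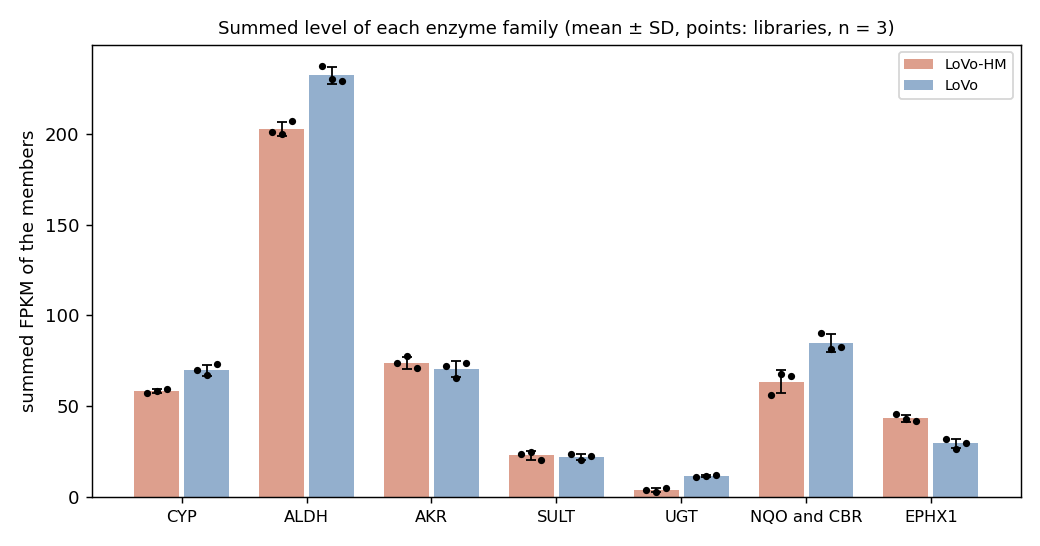
Summed FPKM (vertical axis, from 0) of the members of each enzyme family in LoVo-HM and in LoVo; bars are the mean ± SD over 3 libraries and points are libraries. ALDH genes carry the largest sum (203 FPKM in LoVo-HM and 232 in LoVo), and the UGT sum is 3.78 FPKM in LoVo-HM and 11.6 in LoVo.

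Of the 4 quinone and carbonyl reductases 1 rose and 1 fell, and the epoxide hydrolase rose. NQO1, the quinone reductase that both AHR and NRF2 induce, whose promoter is printed above (ENSG00000181019, chromosome 16, 69706996 to 69726951), had 7.15, 9.67 and 8.65 FPKM in LoVo-HM, against 6.07, 3.68 and 4.10 FPKM in LoVo. All LoVo-HM libraries were above all LoVo libraries, and NQO1 rose 1.84-fold (0.77 ± 0.160, adjusted p = 0.00455). NQO2, a related quinone reductase, had 6.22, 9.46 and 9.36 FPKM in LoVo-HM, against 10.6, 13.7 and 10.3 FPKM in LoVo. Its groups did not overlap, yet it missed the threshold (-0.44 ± 0.156, adjusted p = 0.0501), although it was called without LoVo-HM replicate 2 or 3 (adjusted p = 0.0442 and 0.0476), with a minimum mean of 2 FPKM (adjusted p = 0.0452) and with robust variance estimates (adjusted p = 0.0492). EPHX1, the microsomal epoxide hydrolase (ENSG00000143819, chromosome 1, 225810092 to 225845563), rose 1.47-fold, with 45.5, 43.0 and 41.7 FPKM in LoVo-HM, against 31.8, 26.7 and 29.9 FPKM in LoVo (0.55 ± 0.070, adjusted p = 0.000306). CBR1, which reduces quinones, prostaglandins and anthracyclines (ENSG00000159228, chromosome 21, 36069941 to 36073166), fell 1.51-fold, with 37.6, 41.8 and 40.6 FPKM in LoVo-HM, against 65.9, 56.5 and 58.6 FPKM in LoVo (-0.58 ± 0.068, adjusted p = 0.000176). The adjacent paralog CBR3 had 5.21, 6.69 and 7.93 FPKM in LoVo-HM and 7.78, 7.61 and 9.73 in LoVo, and it overlapped and did not pass (-0.31 ± 0.140, adjusted p = 0.104), although it was called without LoVo-HM replicate 3 (-0.43, adjusted p = 0.0345).

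Of the 14 aldo-keto reductases, 6 were tested, of which 2 rose and 1 fell. AKR7A2, a reductase of succinic semialdehyde and aflatoxin aldehydes, rose to 32.9 ± 1.71 FPKM in LoVo-HM, against 26.3 ± 2.35 FPKM in LoVo (0.31 ± 0.071, adjusted p = 0.0073). Its neighbours AKR7A3 and AKR7L, the latter annotated as a polymorphic pseudogene, did not pass (adjusted p = 0.121 and 0.778). AKR7A3 was called without LoVo-HM replicate 2 (-0.53, adjusted p = 0.0481). The sugar reductase AKR1E2 rose to 3.53 ± 0.464 FPKM in LoVo-HM, against 2.39 ± 0.106 FPKM in LoVo (0.41 ± 0.096, adjusted p = 0.0083). The general aldehyde reductase AKR1A1 was at 32.3 ± 0.879 FPKM in LoVo-HM and 34.4 ± 2.88 in LoVo and did not pass (adjusted p = 0.306). AKR1C3, which reduces prostaglandins and steroids, was at 0.0846, 0.296 and 0.0700 FPKM in LoVo-HM, against 1.13, 0.844 and 1.02 FPKM in LoVo. All LoVo-HM libraries were below all LoVo libraries at these low levels (-0.80 ± 0.126, adjusted p = 0.00103), and by 2.24 on the log2 scale with a pseudocount of 0.1. The other AKR1C members were low, with AKR1C1 at most 0.208 FPKM and AKR1C2 at most 0.173 FPKM in LoVo-HM, against 0.0919 and 0.285 FPKM in LoVo, and AKR1C4 and AKR1C8P at 0 in all libraries. AKR1C genes are close paralogs, and their 5 rows together summed to 0.403 ± 0.242 FPKM in LoVo-HM and 1.20 ± 0.0903 in LoVo (SD, n = 3). The aldose reductase group, AKR1B1, AKR1B10 and AKR1B15, summed to 0.0763 ± 0.0668 FPKM in LoVo-HM and 0.0129 ± 0.0224 in LoVo.

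In phase II, 1 of the 2 tested UGT genes fell and none rose. UGT1A6, which glucuronidates small phenols and is AHR-induced (ENSG00000167165, chromosome 2, 233691607 to 233773300), had 0.873, 0.570 and 2.47 FPKM in LoVo-HM, against 6.44, 6.07 and 7.77 FPKM in LoVo. LoVo-HM replicate 3 stood above the other LoVo-HM libraries and still below every LoVo library. The means differed 5.19-fold (-1.83 ± 0.258, adjusted p = 0.000536). The 9 UGT1A genes each have a first exon of their own and share the remaining exons, so reads of the shared part cannot be assigned with certainty. Their sum was 1.51, 1.05 and 2.69 FPKM in LoVo-HM, against 8.18, 9.06 and 9.98 FPKM in LoVo, and UGT1A6 held most of it in every LoVo library. The other 8 averaged under the filter of 0.5 FPKM and were not tested with it. UGT1A1, the bilirubin enzyme, was the only one of the 8 without overlap, at 0.143, 0.0395 and 0.0851 FPKM in LoVo-HM and 0.344, 0.720 and 0.356 in LoVo. UGT1A3, UGT1A4, UGT1A5, UGT1A7, UGT1A8, UGT1A9 and UGT1A10 had overlapping ranges, with at most 0.204 FPKM in LoVo-HM and at most 1.14 in LoVo. UGT2B7, which glucuronidates opioids and steroids, was the only tested gene of 10 UGT2 members, with 2.17, 1.89 and 1.98 FPKM in LoVo-HM and 2.87, 2.46 and 2.28 in LoVo. Its groups did not overlap but it did not pass (-0.23 ± 0.097, adjusted p = 0.0887), and 7 UGT2 members were at 0 in every library.

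Among the sulphotransferases 3 of 13 members were tested, and limma called 0 of them, with 0 at an unadjusted p under 0.05. SULT1A1, a sulphotransferase of phenols, had 6.51, 5.57 and 4.88 FPKM in LoVo-HM and 5.72, 6.60 and 6.52 in LoVo (-0.14 ± 0.103, adjusted p = 0.318). The catecholamine sulphotransferases SULT1A3 and SULT1A4 are near-identical copies on chromosome 16 (30199228 to 30204310, and 29459889 to 29464976), whose reads cannot be separated with certainty. SULT1A3 had 8.97, 8.74 and 7.88 FPKM in LoVo-HM and 8.77, 6.90 and 7.75 in LoVo, and SULT1A4 overlapped likewise. Neither passed (adjusted p = 0.331 and 0.697), and together they summed to 16.3 ± 1.52 FPKM in LoVo-HM, against 15.2 ± 2.18 in LoVo (SD, n = 3). SULT1A2 was listed at 0 in all libraries. The oestrogen sulphotransferase SULT1E1, under the 0.5 FPKM filter, had 0.521, 0.650 and 0.317 FPKM in LoVo-HM. Each LoVo library listed it at 0. The cholesterol sulphotransferase SULT2B1, also under that filter, had 0.343, 0.427 and 0.273 FPKM in LoVo-HM and 0.663, 0.784 and 0.442 in LoVo.

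In all, 8 of the 42 members that were above 0 somewhere but averaged under 0.5 FPKM had libraries that did not overlap. Besides UGT1A1, SULT1E1 and SULT2B1, these were CYP46A1, CYP27C1 and ALDH8A1, which were higher in LoVo-HM, and CYP4F3 and CYP4F11, which were listed at 0 in all LoVo-HM libraries. CYP46A1, the cholesterol hydroxylase of neurons, was at 0.357 ± 0.0814 FPKM in LoVo-HM and 0.0390 ± 0.0149 in LoVo (SD, n = 3). CYP27C1, a retinoid desaturase, was at 0.577 ± 0.0370 FPKM in LoVo-HM and 0.316 ± 0.0357 in LoVo. With the filter of 0.5 FPKM these members were left out of the fit. The alternative without that filter did include them, and its results for single low members are not given here. The share without overlap was not computed over all genes under the filter, so the count of 8 has no background.

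Regulators, cofactor suppliers and related target genes were followed with a list of 46 genes outside the members, of which 43 were tested, 15 rose and 13 fell. The called share, 65.1%, stands against 44.9% of all tested genes, and the median log2 difference was 0.08. The list was chosen with earlier results of these data known, so this share is only a description. AHR itself (ENSG00000106546, chromosome 7, 16916359 to 17346152) had 34.2, 35.0 and 38.0 FPKM in LoVo-HM, against 112, 117 and 122 FPKM in LoVo. It fell 3.28-fold with no overlap (-1.69 ± 0.056, adjusted p = 6.2e-08). Its dimer partner ARNT did not pass (0.02 ± 0.081, adjusted p = 0.86), nor did the repressor AHRR, an AHR target (0.24 ± 0.094, adjusted p = 0.0704). AHRR was called as higher with rescaled totals (adjusted p = 0.0475), with quantile normalization (adjusted p = 0.028) and without LoVo-HM replicate 3 (adjusted p = 0.0434). TIPARP, another AHR target that feeds back on the receptor, fell to 31.7 ± 1.5 FPKM in LoVo-HM, against 43.6 ± 0.988 FPKM in LoVo (-0.45 ± 0.051, adjusted p = 0.000157). Set side by side, the textbook AHR-induced genes CYP1A1, ALDH3A1, UGT1A6 and TIPARP fell with the receptor, NQO1 rose, and CYP1B1 and AHRR did not pass. This grouping was made after the values were seen, and whether AHR has a part in these differences was not tested.

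**Figure D4:**
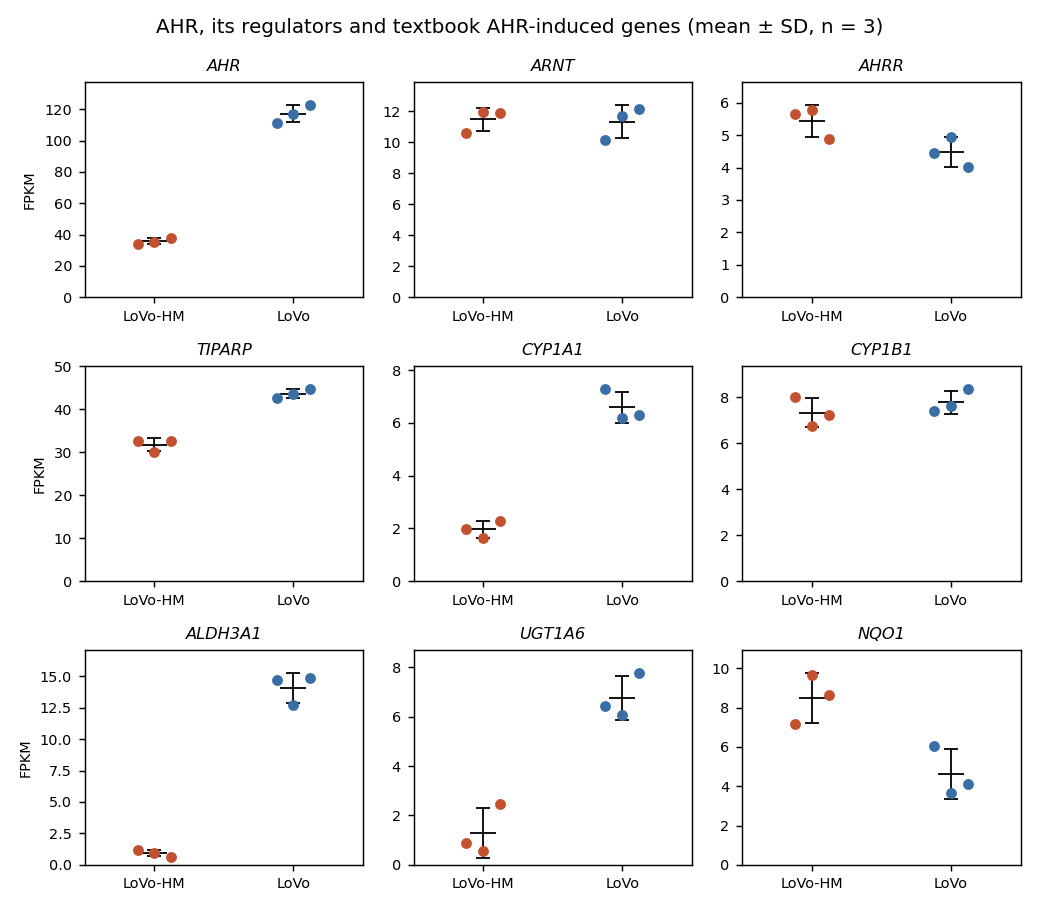
FPKM (vertical axes, linear, from 0) of AHR, its partner ARNT, the feedback genes AHRR and TIPARP, and 5 textbook AHR-induced members in LoVo-HM and in LoVo; points are libraries and bars the mean ± SD (n = 3). AHR, TIPARP, CYP1A1, ALDH3A1 and UGT1A6 are lower in all LoVo-HM libraries, NQO1 is higher, and ARNT and CYP1B1 overlap.

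Of 6 nuclear and hepatic receptors and factors, 3 were tested and 1 fell. NR1I2, the pregnane X receptor that induces CYP3A4, was listed at 0 in all 6 libraries. HNF4A, which maintains hepatic and intestinal expression of many of these enzymes, had 0.187, 0.574 and 0.259 FPKM in LoVo-HM, against 3.04, 3.52 and 2.90 FPKM in LoVo (-1.64 ± 0.131, adjusted p = 1.68e-05). In the NRF2 system 6 genes were tested, of which 1 rose and 3 fell. NFE2L2, which encodes NRF2, was at 43.3 ± 2.45 FPKM in LoVo-HM and 44.0 ± 0.570 in LoVo and did not pass (adjusted p = 0.741). The NRF2 inhibitor KEAP1 rose (0.22 ± 0.057, adjusted p = 0.0128) and the small NRF2 partner MAFF fell (-0.91 ± 0.092, adjusted p = 7.65e-05). BACH1 (-0.71 ± 0.084, adjusted p = 0.00019) and MAFK (-0.33 ± 0.095, adjusted p = 0.0205) fell as well. Of 13 textbook NRF2 targets outside the members 7 rose and 3 fell, where 21.8% of all tested genes rose and 23.1% fell. The thioredoxin reductase TXNRD1 had 98.0, 93.2 and 98.1 FPKM in LoVo-HM, against 53.6, 53.0 and 52.1 FPKM in LoVo (0.85 ± 0.042, adjusted p = 7.53e-07), and the glutathione synthesis subunit GCLM rose to 10.6 ± 0.495 FPKM in LoVo-HM, against 6.20 ± 0.776 FPKM in LoVo (0.70 ± 0.090, adjusted p = 0.000323). The sulphiredoxin SRXN1 fell (-0.40 ± 0.071, adjusted p = 0.00216), so that these targets did not share a direction.

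Of 6 genes of sulphate donor synthesis, transport and by-product removal 4 rose and 1 fell. Of 4 genes of glucuronate donor supply 2 fell and none rose. Of 7 electron donors 3 rose and 1 fell. Over all tested genes 21.8% rose and 23.1% fell, and these small sets were not tested as sets. PAPSS1, which makes the sulphate donor PAPS that SULT enzymes use, had 77.6, 71.6 and 82.1 FPKM in LoVo-HM, against 29.7, 31.2 and 30.6 FPKM in LoVo, a 2.53-fold rise (1.31 ± 0.058, adjusted p = 3.7e-07). Its paralog PAPSS2 rose 1.73-fold (0.63 ± 0.101, adjusted p = 0.00116). UGDH, which makes the glucuronate donor of UGT enzymes, fell to 14.1 ± 1.18 FPKM in LoVo-HM, against 19.4 ± 1.86 FPKM in LoVo (-0.43 ± 0.085, adjusted p = 0.00351). POR, the reductase that passes electrons to microsomal P450s, rose 1.20-fold (0.25 ± 0.056, adjusted p = 0.00657). The microsomal electron carrier CYB5A had 4.13, 5.21 and 5.24 FPKM in LoVo-HM, against 17.3, 17.3 and 15.3 FPKM in LoVo, and fell 3.43-fold (-1.59 ± 0.093, adjusted p = 2.33e-06), whereas its mitochondrial counterpart CYB5B rose 1.51-fold (0.58 ± 0.054, adjusted p = 4.62e-05).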

How the data were processed

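Per the labels' protocols, Trizol was used to extract RNA from LoVo-HM and LoVo cells, and 1 ug of each went into an Illumina TruSeq RNA kit. Deposited values were the authors' FPKM in 1 table, 1 column per library (6 in all). The submitters' processing notes name GRCh38. For the aligner, counter, annotation release, strand setting and read depth, the entry is "not given in the sources used here", so reads of overlapping or antisense genes cannot be told apart. Pairs of libraries of a line showed no steps worth 1 read among genes under 0.3 FPKM (at most 3.35% of ratios fell in any bin of 0.05 log2 units).

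Values were used as log2(FPKM + 1) without further scaling. All rows with a mean of at least 0.5 FPKM, 14487 in all, were fitted with limma 3.58.1 in R 4.3.3 (intensity trend, two-sided moderated tests, Benjamini-Hochberg adjustment, threshold 0.05). The fit was also run on simulated data with independent, normally distributed libraries. That run cannot show whether the p-values hold for these libraries, whose independence is not stated. All 123 members matched GENCODE 29 by Ensembl identifier. It annotates 121 of them as protein coding, and CYP2D7 and AKR7L as polymorphic pseudogenes. Named by rule were members changed at least 2-fold on the log2(FPKM + 1) scale without overlap, the 3 highest of each family, the NQO, CBR, EPHX1, AKR1B, AKR1C, CYP1, UGT1A and SULT1A genes, and fixed pathway genes. Other tested members are named so that each is accounted for, and TIPARP, ARNT, AHRR, NR1I2, BACH1 and MAFK after their values were seen. The members and lists were chosen with earlier results of these data known. Role groups follow textbook substrates. Alternatives were other pseudocounts, filters, scalings and variance fits, a replicate block, and leaving out each library.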

Additional observations from a re-analysis of the deposited data

How the results depend on the processing

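Of 1031 recomputed log2 differences (65 members and pathway genes under 16 alternatives), 956 kept their direction and their side of the threshold, 38 lost and 19 gained a call, and 18 changed sign, all in genes that did not pass. The number of members called was 22 to 26 without single libraries and 25 to 29 under the other alternatives, against 27. These totals include gained calls. Of the 27 calls, 22 to 25 were kept without single libraries, 22 without the filter on low values and 24 without a trend in the variance. The number of all tested genes changed at least 2-fold on the log2 scale was 1528 with a pseudocount of 0.1, against 950. The replicate number as a block gave 29 called members and 6459 of all tested genes; same-numbered libraries deviated together by correlations of -0.01, 0.02 and 0.03, so the numbers were not taken as pairs, and the block kept 26 of the 27 calls (CYP3A5 was lost) and gained NQO2 (adjusted p = 0.0184), CBR3 (0.0276) and CYP39A1 (0.0484); outside the members it gained AHRR (0.045). With quantile normalization AKR7L (0.0301) and ALDH1B1 (8.88e-05) changed sign, and with rescaled totals ALDH18A1 (0.00586), ALDH1B1 (0.0252) and NFE2L2 (0.00825) did. Without single libraries the log2 differences ran from -0.118 to 0.0629 for AKR7L, -0.0459 to 0.00510 for ALDH18A1, -0.141 to 0.0658 for CYP2D7, -0.0655 to 0.147 for SULT1A4, -0.0143 to 0.00312 for ALDH1B1, -0.0502 to 0.0708 for ARNT and -0.0522 to 0.0226 for NFE2L2. For these the cause was not tested. The unknown depth limits the values below 0.5 FPKM.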
